A study of Mus musculus with 6 samples.

Results

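The genes described here encode the constitutive proteasome, with its regulatory particle, its activators and the chaperones that assemble it. They were taken from the array's gene names as every symbol that starts with Psma, Psmb, Psmc, Psmd, Psme, Psmf or Psmg and a digit, without the immunoproteasome genes Psmb8, Psmb9 and Psmb10. The rule gave 45 genes on 47 probes, out of 13409 genes with a named probe. Psmc3ip, a meiotic recombination cofactor, and Psme3ip1, which is named for binding Psme3, meet the rule by their symbols and are no proteasome subunits, so 43 genes of the proteasome remain. Psmc2, an ATPase of the regulatory particle, and Psmg4, an assembly chaperone, have no named probe here.

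The tissue was white fat of the epididymal depot from male C57BL/6J mice aged 12 weeks, taken 3 hours after an injection. Mice of 1 group had received CL-316,243, which activates the beta3-adrenergic receptor, at 1 mg per kg body weight (the description in the labels writes CL316,246), and mice of the other group had been given saline. RNA of 6 mice per group was combined into 1 pool, and the 2 pools were hybridised together on 6 arrays of 2 colours. On arrays 1 to 3 channel 1 held the CL-316,243 pool, and on arrays 4 to 6 channel 2 held it. With 1 pool per group the arrays are repeat measurements of the same RNA, so every error and p-value below covers the spread between arrays and not that between mice.

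The proteasome is the cell's main ATP-dependent protease for proteins tagged with ubiquitin. Its barrel, the 20S core, has outer rings of alpha subunits, which gate the entrance, and inner rings of beta subunits, of which beta1, beta2 and beta5 cut peptide bonds. The 19S particle caps the core, with ATPases that unfold the substrate and other subunits that bind and remove ubiquitin. Other caps, such as PA28 and PA200, open the gate without ubiquitin. In cells under interferon-gamma, Psmb8, Psmb9 and Psmb10 replace the constitutive catalytic subunits, and the PA28 genes Psme1 and Psme2 are induced with them. In fat cells beta3-adrenergic signalling acts through cyclic AMP and protein kinase A, a kinase that is also known to act on proteasomes.

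The deposited values are log ratios of the pools, taken here as log2. Fold differences below hold only for that base. Missing values stood only at the column ends, and deposited rows did not correspond between arrays (Spearman rho of array pairs from -0.031 to 0.034 over probes). Each column was therefore first placed on probe numbers. After that, arrays of the same orientation correlated at a mean rho of 0.283 and arrays of opposite orientation at 0.108, and the placement itself raises such values. Between 91.6% and 99.8% of probes were placed on arrays 1, 3, 4, 5 and 6, and 61.9% on array 2. The sources used here do not give which pool is the numerator. "Higher" and "positive" mean higher in the numerator pool, and all directions turn together if the numerator is the saline pool. Deposited signs were kept. Of 86 probes whose mean reached 1 in size in both orientations 85 agreed in sign between them, but the placement favours such agreement. A placement that ignored the signs gave 69 such probes, of which 68 agreed. Turning the signs of 1 orientation before the placement lowered its gain in log-likelihood on every array, by much on arrays 1 to 3 (1799 to 1066, 681 to 418 and 867 to 394) and by little on arrays 4 to 6 (2238 to 2102, 3113 to 3009 and 1782 to 1611). Dio2 and Ppargc1a, genes known to be induced by beta3-adrenergic agonists in fat, were positive on all 6 arrays (1.18 ± 0.19 and 0.77 ± 0.16, log2 ratio ± SE). The files hold ratios and no levels, so the tissue could not be checked by the level of its markers, and the depth behind a ratio is unknown.

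Of the proteasome genes, only Psme1 differed between the pools past the threshold of the test. Of 41 members with at least 2 placed arrays in each orientation, 1 passed at a limma adjusted p under 0.05, Psme1, which was higher, and 0 passed as lower. Over all 12487 genes tested, 3.22% passed, 1.93% higher and 1.29% lower, so 1 of 41 is near the background. At an unadjusted p under 0.05 stood 4 members (Psme1, Psmb4, Psmg2 and Psmg1), against 18.3% of all genes. The ratios were divided evenly, 21 positive and 20 negative, with a median of 0.0009 beside -0.011 over all genes. In size, 40 of 41 members (97.6%) lay under 0.5, as did 93.7% of all genes. The 95% interval of each of the 41 members lay within -1 and 1 (96.1% of all genes). If the log base is 2, these intervals exclude a 2-fold difference between the pools as these arrays measured them. This also takes the placement as given.

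**Figure D1:**
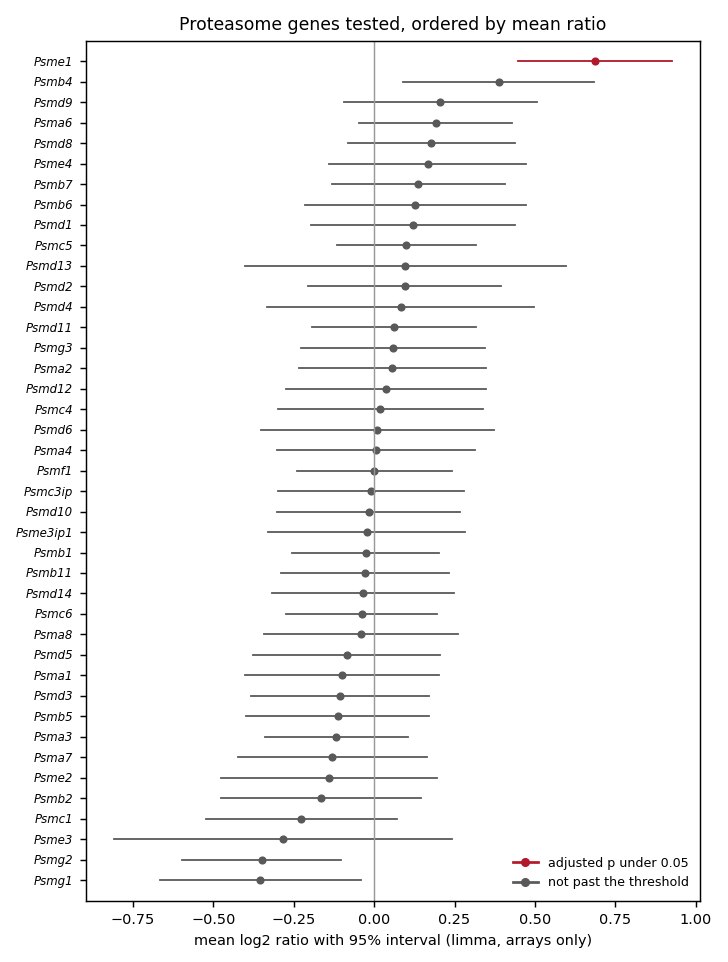
Mean log2 ratio of the 2 pools for the 41 members tested (points) with the 95% interval of limma over the arrays (lines), ordered by size. The interval of Psme1 runs from 0.45 to 0.93 and its point, at 0.69, stands above the next, Psmb4 at 0.39. The intervals of 3 other members (Psmb4, Psmg1 and Psmg2) leave out 0.

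Psme1 encodes the alpha subunit of PA28 (also called 11S), a ring that caps the 20S core and opens it for peptides. Its ratios on arrays 1 to 6 were 0.94, 0.59, 0.51, 0.53, 0.86 and 0.68. All 6 were positive, and the arrays of both orientations covered the same range, with means of 0.68 on arrays 1 to 3 and 0.69 on arrays 4 to 6. The mean was 0.69 ± 0.11 (SE, n = 6 arrays), a 1.61-fold difference with an interval from 1.36 to 1.90, and the limma adjusted p was 0.00946, the 111th smallest of 12487. Psme1 did not pass without array 5 (0.64, limma adjusted p = 0.0642), nor with the 3 arrays of either orientation alone (0.68, adjusted p = 0.165, and 0.69, adjusted p = 0.0617, limma). It rests on 1 probe, whose position was assigned with a posterior of 1.0 on all 6 arrays. That posterior is drawn from agreement with the other arrays, so the shared sign and the p-value are not independent of the placement. With columns placed on absolute values, which ignores the signs, the ratio of Psme1 was 0.71 on 5 arrays (limma adjusted p = 0.0101). That placement still draws on agreement in size between arrays. With the rows as deposited, which did not correspond between arrays, the ratio of Psme1 was -0.06.

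Psme2 encodes PA28 beta, which forms the same ring with Psme1. It was placed on 4 arrays, at 0.08 on array 1, 0.08 on array 3, -0.62 on array 5 and -0.10 on array 6. It was near 0 or negative on each of them, while Psme1 stood at 0.51 or above on the same arrays. The value of array 5, the only one far from 0, was placed at a posterior of 0.974. At a posterior limit of 0.99 that value was dropped, which left too few arrays for a test. Psme2 was also not tested with columns placed on absolute values. Its mean was -0.14 ± 0.14 (limma adjusted p = 0.667), and the difference between Psme1 and Psme2 was not tested.

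Psme1 and Psme2 lie near each other on chromosome 14 in opposite directions. The 250 bases before their starts are shown because the ratios of these partners in 1 ring were so unlike. They are from RefSeq, build GRCm38.p6. For Psme1 the stretch is chr14:55578244-55578493 on the plus strand. For Psme2 it is chr14:55591102-55591351 on the minus strand, before the more distal of 2 listed starts. Capitals mark the GC box GGGCGG and the cyclic AMP response element core TGACG on either strand (as CCGCCC and CGTCA on the other).
Psme1: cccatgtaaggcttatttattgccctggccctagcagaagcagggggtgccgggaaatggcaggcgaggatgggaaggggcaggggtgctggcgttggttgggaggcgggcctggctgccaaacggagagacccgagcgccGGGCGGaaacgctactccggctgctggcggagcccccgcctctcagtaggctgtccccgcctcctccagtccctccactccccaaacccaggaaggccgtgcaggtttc
Psme2: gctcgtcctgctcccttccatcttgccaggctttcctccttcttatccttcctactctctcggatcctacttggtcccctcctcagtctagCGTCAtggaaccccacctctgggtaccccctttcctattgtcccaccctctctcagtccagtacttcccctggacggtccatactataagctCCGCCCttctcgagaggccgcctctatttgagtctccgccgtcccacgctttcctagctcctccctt

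Each stretch holds 1 GC box. The Psme2 stretch also holds 1 TGACG, and the Psme1 stretch holds 0. A match is a description of these letters and no evidence of a binding site.

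The other caps and the inhibitor did not pass. Psme3, which forms the nuclear PA28 gamma ring, spread widely, at -0.07, 0.76 and -1.05 on arrays 1 to 3 and -0.69 and -0.20 on arrays 5 and 6. Its mean of -0.28 ± 0.23 (limma adjusted p = 0.571) had the widest interval of the members, from -0.81 to 0.24. Leaving out array 3 gave -0.05, and leaving out array 2 gave -0.50. The value of array 2 was also dropped at a posterior of 0.99 and in the placement on absolute values. Psme4, the PA200 cap, was positive on all 4 arrays that placed it (0.02, 0.24, 0.25 and 0.15 on arrays 1, 3, 5 and 6), at a mean of 0.17 ± 0.13 (limma adjusted p = 0.564). Psmf1, the inhibitor PI31, had 3 positive and 3 negative arrays between -0.20 and 0.26 and a mean of 0.0009 ± 0.11. Of the 5 genes of caps and inhibitor, only Psme1 passed.

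**Figure D2:**
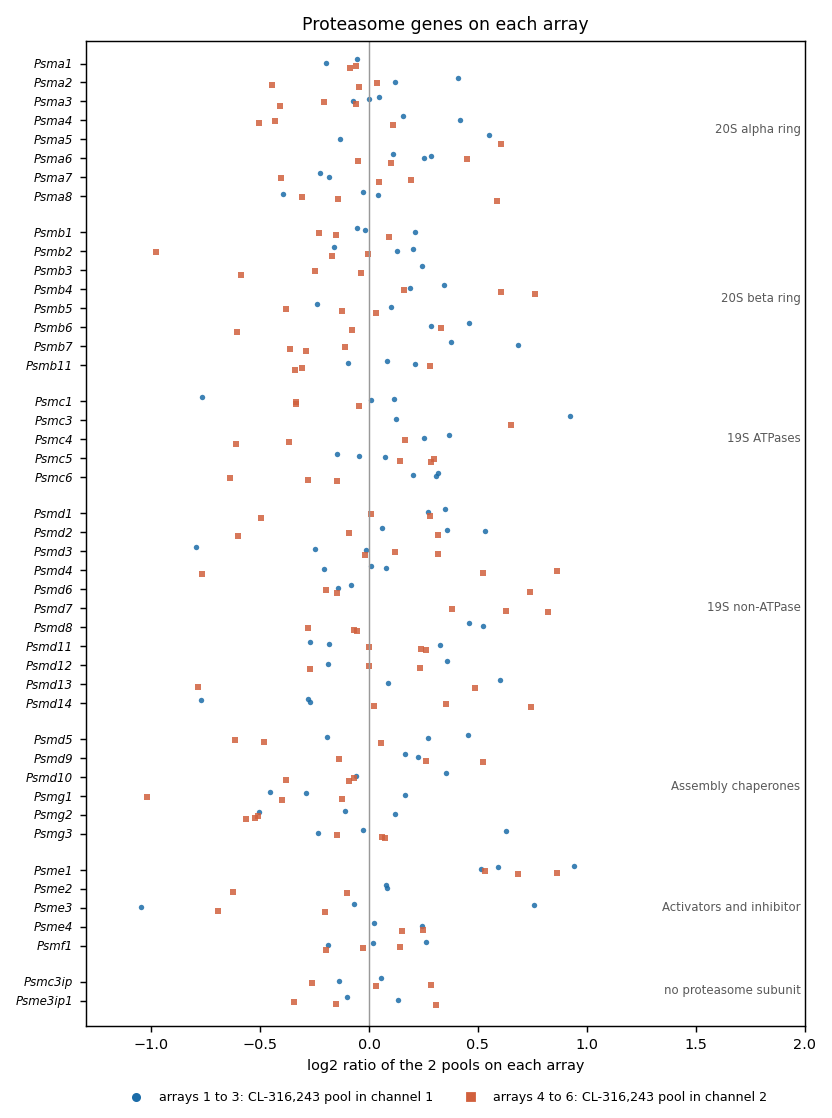
Log2 ratio on each array for the 45 members, grouped by role (circles, arrays 1 to 3; squares, arrays 4 to 6). The 6 points of Psme1 lie between 0.51 and 0.94, while most other members have points on both sides of 0.

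In the alpha ring of the core, 0 of 7 tested genes passed (limma; 0 at an unadjusted p under 0.05), and their means ran from -0.13 to 0.19 with a median of -0.04. Psma6 was the highest, at 0.11, 0.29, 0.25, 0.45, -0.05 and 0.10 on arrays 1 to 6, with a mean of 0.19 ± 0.11 (limma adjusted p = 0.381) that was 0.12 without array 4. Psma7 was the lowest, at -0.23, -0.18, -0.40, 0.19 and 0.05 on arrays 1, 3, 4, 5 and 6, with a mean of -0.13 ± 0.13 (adjusted p = 0.654, limma) that was -0.04 without array 4. Psma1 was negative on all 4 of its arrays, though by no more than 0.20, and its mean was -0.10. Psma8, a testis form of the alpha4 subunit, was at -0.04. Psma5 was placed on 3 arrays (0.55, -0.14 and 0.60 on arrays 1, 3 and 6) and was not tested.

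In the beta ring, 0 of 7 tested genes passed (limma), 1 stood at an unadjusted p under 0.05, and the median was -0.03. That gene was Psmb4, which encodes beta7, a subunit without a catalytic site. Psmb4 was at 0.34, 0.19, 0.16, 0.61 and 0.76 on arrays 1, 3, 4, 5 and 6. All 5 were positive, and the highest were on arrays 5 and 6. Its mean was 0.39 ± 0.13, a 1.31-fold difference, and it missed the threshold (limma adjusted p = 0.158). Psmb2 was the lowest of the ring, at -0.16, 0.20, 0.13, -0.98, -0.0052 and -0.17 on arrays 1 to 6. Array 4 stood far below the other 5, and the mean was -0.17 ± 0.14 (limma adjusted p = 0.581). Without array 4 it was -0.02, so its place as the lowest rests on that array.

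The constitutive catalytic subunits were near 0 on average. Psmb5 (beta5, the chymotrypsin-like site) was at -0.11 ± 0.13, Psmb6 (beta1, the caspase-like site) at 0.13 ± 0.15 and Psmb7 (beta2, the trypsin-like site) at 0.14 ± 0.12. Psmb1, a further beta subunit, was at -0.03 and Psmb11, a thymus form of beta5, at -0.03. Psmb3 was placed on 1 array with the CL-316,243 pool in channel 1 (0.24, array 1) and on all 3 of the other orientation (-0.25, -0.04 and -0.59), and it was not tested.

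The 19S ATPases form the ring that unfolds the substrate and feeds it into the core. Of 4 tested, 0 passed (limma; 0 at an unadjusted p under 0.05), with a median of -0.01. Psmc1 was the lowest, at -0.77, 0.11, 0.01, -0.33, -0.33 and -0.05 on arrays 1 to 6. It was lowest on array 1, and its mean was -0.23 ± 0.13 (limma adjusted p = 0.41), or -0.09 without array 1. Psmc5 was the highest at 0.10 ± 0.10, with -0.15, -0.05, 0.07, 0.30, 0.14 and 0.28 on arrays 1 to 6. Psmc4 was at 0.02 and Psmc6 at -0.04. Psmc3 was positive on the 3 arrays that placed it (0.92, 0.13 and 0.65 on arrays 1, 3 and 6) and was not tested.

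The non-ATPase subunits of the 19S particle hold the scaffold, the ubiquitin receptors and the deubiquitinase. Of 10 tested, 0 passed (limma; 0 at an unadjusted p under 0.05), 8 had positive means, and the median was 0.07. Psmd8, a lid subunit, was the highest at 0.18 ± 0.11 (adjusted p = 0.461, limma). Psmd3, a lid subunit, was the lowest, at -0.80, -0.25, -0.01, 0.12, 0.32 and -0.02 on arrays 1 to 6. Its mean of -0.11 ± 0.12 (limma adjusted p = 0.703) rested on array 1, and was 0.0041 without it. The large base scaffolds Psmd1 and Psmd2 were at 0.12 and 0.09, and the ubiquitin receptor Psmd4 was at 0.08 ± 0.19. Psmd4 spanned 0.86 on array 4 to -0.77 on array 6, so arrays of 1 orientation were at both ends. Psmd6, Psmd12 and Psmd13 had means between 0.01 and 0.10. Psmd7, a lid subunit that pairs with Psmd14, was placed only on arrays 4 to 6 (0.38, 0.63 and 0.82). All 3 values were positive, and with no array of the other orientation it was not tested.

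Psmd11, a lid subunit, was read by 2 probes, with means of -0.04 and 0.17. The probes differed most on array 2 (-0.66 and 0.29) and array 4 (-0.23 and 0.23). Their mean was 0.06 ± 0.11 (limma adjusted p = 0.825), and neither probe passed on its own. Psmg3, a chaperone that helps to build the alpha ring, was the other gene with 2 probes, at 0.20 and -0.08. On array 2 the first of them stood at 1.49 and the second at -0.23. The gene mean was 0.06 ± 0.13 (adjusted p = 0.858, limma), and without array 2 it was -0.07.

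Assembly chaperones bind the growing particles and leave the finished ones. Of 6 tested, 0 passed (limma) and 2 stood at an unadjusted p under 0.05, Psmg2 and Psmg1, which form a dimer that starts the alpha ring. Psmg2 was at -0.11, -0.51, 0.12, -0.51, -0.52 and -0.56 on arrays 1 to 6. Array 3 alone was positive, and arrays 2, 4, 5 and 6 lay close together. Its mean was -0.35 ± 0.11, with an adjusted p of 0.127 in limma. Psmg1 was at -0.45, -0.29, 0.17, -1.02, -0.12 and -0.40 on arrays 1 to 6. It too was positive on array 3 alone, and its lowest value was on array 4. Its mean was -0.35 ± 0.14 (limma adjusted p = 0.216), or -0.23 without array 4. These were the lowest means of all members tested, so the partners of the dimer had the same sign and neither passed.

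Psmd5, Psmd9 and Psmd10 are chaperones of the 19S base. Psmd9 was at 0.17, 0.23, -0.14, 0.26 and 0.52 on arrays 1, 3, 4, 5 and 6, with a mean of 0.21 ± 0.13 (limma adjusted p = 0.462) that was 0.13 without array 6. Psmd10, also known as gankyrin, was at -0.02 and Psmd5 at -0.09. Psmc3ip and Psme3ip1, which are no proteasome genes, were at -0.01 and -0.02.

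From array to array the members showed no common shift of size. Their median on arrays 1 to 6 was 0.07, -0.0021, 0.12, -0.13, -0.06 and -0.05. It was positive on arrays 1 and 3, which share an orientation, and negative on all of arrays 4 to 6. No array's median exceeded 0.13 in size. Over all genes the medians on arrays 1 to 6 were -0.0063, -0.04, 0.02, -0.03, -0.01 and -0.0020. The difference of the members' medians between the orientations was not tested. Over members, arrays of the same orientation correlated at a mean rho of 0.258 and arrays of opposite orientation at 0.019, where all genes gave 0.312 and 0.122. These are correlations over genes that share each array and its placement. Among the 41 members tested, Psme1, Psmb4 and Psme4 were positive on every placed array and Psma1 was negative on every placed array. Over all genes tested, 6.93% were positive and 7.02% negative throughout, 13.9% in all.

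Some members took opposite signs in the 2 orientations. This held on every placed array for 5 of 41, beside 6.99% of all genes. Psmb7 had means of 0.53 on arrays 1 to 3 and -0.25 on arrays 4 to 6. Psmd14, the deubiquitinase of the lid, had means of -0.44 and 0.37. Their average over orientations, near 0, thus stands for ratios of both signs. The fit's term for orientation, called the dye term here, passed for 0 members (limma adjusted p of 0.38 or above). At an unadjusted limma p under 0.05 stood 4 members, and over all genes 10.5% did so and 0.00801% passed. The 2 orientations are also 2 sets of arrays, so an effect of dye and one of the set cannot be told apart.

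**Figure D3:**
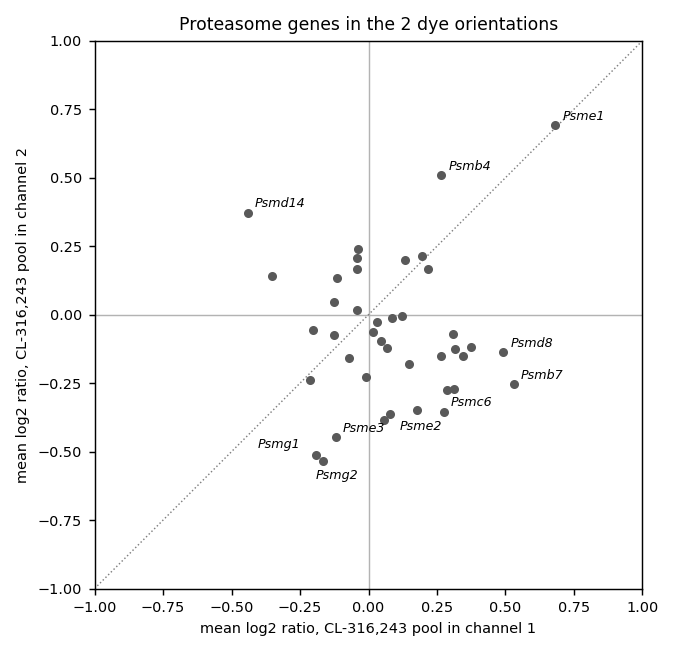
Mean log2 ratio of each of the 41 members tested on the arrays with the CL-316,243 pool in channel 1 (horizontal) and in channel 2 (vertical), with the line of equal means dotted. Psme1 lies on that line at 0.68 and 0.69, and Psmb7, Psmd8, Psmc6 and Psmd14 lie in the corners where the signs differ.

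RefSeq promoters (GRCm38.p6, from 250 bases before to 50 bases after the start) were found for 35 of the 43 proteasome genes, 37 promoters in all. The GC box GGGCGG was in 59.5% of them and in 35.7% of 32851 promoters of all genes. The cyclic AMP response element core TGACG was in 48.6% and 20.8%, the antioxidant response element core TGACNNNGC in 16.2% and 12.4%, and CCAAT in 32.4% and 37.4%. The 32851 promoters are not limited to genes tested here, so they are an unlike background for the members. Among tested genes with a listed promoter, 3044 held TGACG and 6821 did not, beside 15 and 18 tested members. No excess of a motif was tested. Both strands were searched, and TGACG and TGACNNNGC can overlap. The 15 tested members with TGACG had a median log2 ratio of 0.0096 and the 18 without it one of 0.06. With TGACG 0 passed, and without it 1 did, Psme1. Over tested genes with a listed promoter the share that passed was nearly the same with TGACG (3.32% of 3044, median 0.0017) and without it (3.28% of 6821, median -0.018). The members' counts are near that background, and 15 and 18 genes are too few to show a difference from it.

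The immunoproteasome genes were the nearest relatives measured, and 0 of 3 passed (limma; 2 at an unadjusted p under 0.05). Psmb9, which replaces Psmb6, was at -0.62, -0.14, -0.87, -0.61 and -0.31 on arrays 1, 3, 4, 5 and 6. All 5 were negative, at a mean of -0.49 ± 0.14 (limma adjusted p = 0.099). Psmb8, which replaces Psmb5, was at -0.14, 0.04, -0.82, -1.09 and -0.59 on the same arrays. It was lower on arrays 4 to 6, and on these 3 arrays alone it passed (-0.83, limma adjusted p = 0.0419). Its mean over all arrays was -0.44 ± 0.13 (limma adjusted p = 0.101). Psmb10 was at 0.17 ± 0.14. Psmb8 and Psmb9 thus had the opposite sign to Psme1, and that difference was not tested.

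Ubiquitin shuttles and the unfoldase complex bring substrates to the proteasome. Of 8 tested, 1 passed and was higher, Rad23b, a shuttle that binds ubiquitin chains and the 19S particle. At an unadjusted limma p under 0.05 stood 4. Over all genes 3.22% passed and 18.3% stood at an unadjusted p under 0.05, and these shares stand beside every list here. Rad23b was at 0.94, 0.57, 0.78, 0.0043, 0.43 and 0.46 on arrays 1 to 6, lowest on array 4. Its mean was 0.53 ± 0.11 (limma adjusted p = 0.0323), and it did not pass without array 1, 5 or 6 (0.49, 0.50 and 0.49), without the dye term (0.53, adjusted p = 0.0592, limma) or in either orientation alone (0.76 and 0.30). Sqstm1, the autophagy receptor p62, was positive on all 6 arrays between 0.12 and 1.18 and missed the threshold (0.49 ± 0.14, limma adjusted p = 0.0976).

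Among regulators of proteasome gene transcription 1 of 8 tested passed and was lower, Ngly1, the glycanase that processes the transcription factor Nfe2l1; 3 stood at an unadjusted p under 0.05. Ngly1 was at -0.26, -0.51, -0.43, -1.52, -0.80 and -0.57 on arrays 1 to 6, all negative and lowest on array 4. Its mean was -0.68 ± 0.13 (limma adjusted p = 0.0249). It did not pass without array 1, 2, 4 or 5 (-0.72, -0.65, -0.54 and -0.72) or on arrays 1 to 3 alone (-0.40). With columns placed on absolute values Ngly1 was not tested. Nfe2l1 itself, which drives proteasome genes when proteasomes fail, was at 0.01 ± 0.12, and Nfe2l2, the oxidative stress factor, at -0.39 ± 0.18 (limma adjusted p = 0.299), or -0.24 without array 4.

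Other proteins bound to the proteasome gave 0 of 10 (limma; 3 at an unadjusted p under 0.05), with 8 negative means. Txnl1, a thioredoxin-like protein of the 19S particle, had the smallest p of the list and was positive on 5 of 6 arrays (0.44 ± 0.12, limma adjusted p = 0.0795). Pithd1, a protein with a proteasome-interacting domain, was at -0.46 ± 0.15 (limma adjusted p = 0.141), and it passed without array 3, where it was positive (-0.65, limma adjusted p = 0.00889). Ube3c, a ubiquitin ligase on the proteasome, was at -0.45 ± 0.13 (limma adjusted p = 0.0918). It passed without array 2 (-0.58, limma adjusted p = 0.0333) and with columns placed on absolute values (-0.58, limma adjusted p = 0.023). The E1 enzyme Uba6 was at -0.11 ± 0.10 (-0.05 without array 2) and was the single gene of its list with a probe. The COP9 signalosome, a complex built like the 19S lid, gave 0 of 8 (limma; 1 at an unadjusted p under 0.05), with 5 positive means and a median of 0.05. Its largest ratios in size were those of Cops4 (-0.71 ± 0.21, limma adjusted p = 0.105) and Cops6 (-0.26 ± 0.17, limma adjusted p = 0.476), and Cops6 was at -0.09 without array 6. The highest were Cops8 at 0.24 ± 0.12 and Cops2 at 0.23 ± 0.13.

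**Figure D4:**
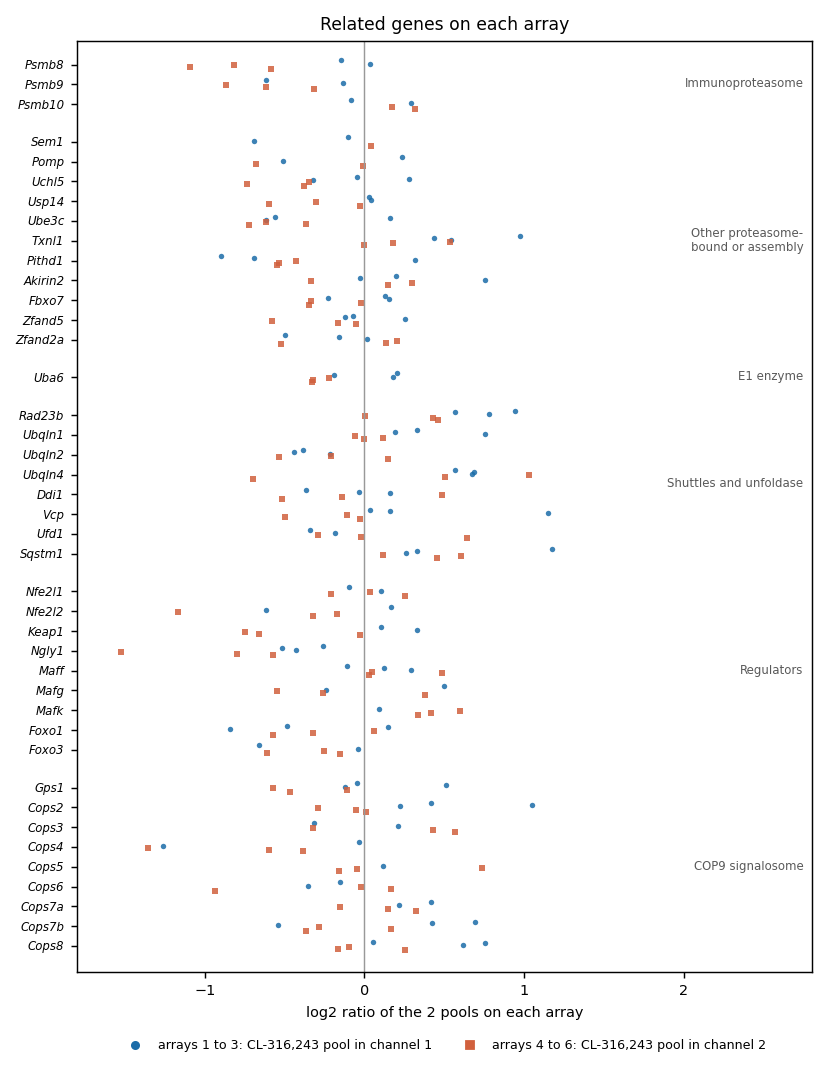
Log2 ratio on each array for the related genes, grouped by list (circles, arrays 1 to 3; squares, arrays 4 to 6). The 6 points of Ngly1 lie below 0 and those of Rad23b at or above 0, the genes of these lists that passed.

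Markers of other tissue differed between the same pools. Of 6 tested genes listed for the seminal vesicle and epididymis, 5 passed as lower, Svs2, Svs4, Svs5, Svs6 and Pate4. The median was -2.45, and Svs5, a seminal vesicle secretory protein, was at -5.47. Defb1 was at 0.08 (limma adjusted p = 0.84), and Lcn5, positive on 3 of 4 placed arrays, was not tested. The part of the genes of this list in the ratio of Psme1 was not tested. Of 6 adipocyte markers, 0 passed in limma, with a median of 0.56. At an unadjusted limma p under 0.05 stood 4 of them, beside 18.3% of all genes. Lpl, Cidec and Retn stood at 2.29, 3.17 and 2.47 on array 3, and Fabp4, Adipoq and Lep at 1.32, 0.69 and 0.04. Lep went the other way from the rest of the list, with a mean of -0.19 (limma adjusted p = 0.347). The part of these markers in the ratio of Psme1 was not tested. Of the macrophage, endothelial, T and B cell and muscle markers 0 passed (limma; 1, 1, 0 and 0 at an unadjusted p under 0.05). In pooled tissue fewer cells of a type and less RNA per cell cannot be told apart.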

How the data were processed

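Pooled RNA was labelled as cDNA for Cy3 and Cy5, detected by tyramide amplification and quantified in QuantArray, per the labels' protocols. The deposited log ratios, taken here as log2, had been scaled and LOWESS-corrected by the authors, per the labels. The sources used here do not give numerator, log base, dye per channel or background correction.

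A hidden Markov model that lets a column lose spots assigned each column to the 19200 probes (normal scores clipped at 3). It was also run on simulated data, with losses drawn as in the model and the same noise on every array. That run does not show how well the deposited columns were placed. Values with a posterior of at least 0.95 were kept. All errors and p-values take these positions as given and do not cover errors of placement. Of 14717 annotated probes, 14711 had 1 symbol and 6 several (not named), and 4483 probes are unnamed here. Gene values are means of a gene's probes. limma 3.58.1 (R 4.3.3) tested the mean ratio against 0 with dye orientation as a term, in genes with at least 2 placed arrays per orientation, with Benjamini-Hochberg adjustment over all genes. The number of arrays limits the precision.

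Members and lists were chosen with earlier results of these data known. Named were members that passed, the 12 largest ratios, the highest and lowest of each role, members with several probes and, from each related list, genes that passed and the 2 largest. All other genes were named after their values were seen. Promoters were to be shown only where members moved together; they are shown for Psme1 and Psme2 beyond that rule, after the values were seen. Alternatives were the placement, posterior, probes, filters, scaling, centring, dye term, each orientation, moderation and each array left out.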

Additional observations from a re-analysis of the deposited data

Results flagged for a closer look

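In 5 members every placed array of 1 orientation had 1 sign and every placed array of the other had the opposite sign. The difference between the means (CL-316,243 pool in channel 1 minus channel 2, log2) was 0.78 for Psmb7, 0.63 for Psmc6, 0.63 for Psmd8, -0.81 for Psmd14 and 0.44 for Psme2. Psmb7 was at 0.38 and 0.68 on arrays 1 and 3 and at -0.11, -0.36 and -0.29 on arrays 4 to 6. Psmd14 was at -0.28, -0.77 and -0.27 on arrays 1 to 3 and at 0.35, 0.02 and 0.74 on arrays 4 to 6. Psmc6, an ATPase of the 19S base, was at 0.32, 0.20 and 0.31 on arrays 1 to 3 and at -0.64, -0.28 and -0.15 on arrays 4 to 6. Psmd8 was at 0.46 and 0.52 on arrays 1 and 3 and at -0.28, -0.07 and -0.06 on arrays 4 to 6. The dye term was tested and missed the threshold in each (limma adjusted p of 0.38 for Psmb7 and Psmd14, 0.395 for Psmc6, 0.424 for Psmd8 and 0.592 for Psme2).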

How the results depend on the processing

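The count of members that passed, 1, was 0 with rows as deposited (limma; 1 of 45 at an unadjusted p under 0.05), in channel 1 arrays alone (4 of 43 unadjusted), in channel 2 arrays alone (5 of 43) and without array 5 (4 of 36). Leaving out 1 array gave 0 to 1. Under the other alternatives run it was 1, including without Psmc3ip and without both that gene and Psme3ip1, the latter chosen after seeing the data. Psme1 passed under 16 of 20 alternatives (limma adjusted p from 0.00568 to 0.969, the latter with rows as deposited). That count includes alternatives that could not change its own values. The posterior limits, the choice of probes and the filters on placed arrays all left its ratio at 0.6873. The median of members was 0.08 in channel 1 arrays alone and -0.10 (-0.0972) in channel 2 arrays alone. The count over all genes, 402, was 0 with rows as deposited (489 unadjusted), 702 for probes, 71 and 245 in channel 1 and channel 2 arrays alone, and 115 to 352 with 1 array left out (115 without array 5, 147 without array 1, 210 without array 4). The cause was not tested. Without array 1 or 3, 21 members had enough values to be tested.

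Deposited rows did not correspond between arrays, so a ratio from them averages values of unlike probes and is no check of a gene's sign. With rows as deposited the sign turned for Psmb2 (0.29), Psmb4 (-0.28), Psmc1 (0.28), Psmd11 (-0.16), Psme1 (-0.060), Psme2 (0.64) and Psme3 (0.072). There it also turned for Psme4 (-0.022), Psmg3 (-0.0091), Cops4 (0.13), Nfe2l2 (0.15) and Ngly1 (0.049). The sign turned likewise for Pithd1 (0.041), Psmb8 (0.087), Psmb9 (0.063) and Uba6 (0.026). In channel 1 arrays alone it turned for Psmb2 (0.055), Psmc5 (-0.040), Psmd11 (-0.043), Psme2 (0.080) and Uba6 (0.064), and in channel 2 arrays alone for Psmd3 (0.14), Psmd8 (-0.14) and Psmg3 (-0.0055). It turned for Psmd11 with 1 probe per gene (-0.042) and without array 3 (-0.031, the range with 1 array left out reaching 0.119), for Psmg3 with columns placed on absolute values (-0.069) and without array 2 (-0.069, range to 0.147), and for Psmd3 without array 1 (0.0041, range from -0.191). Psmb4, Psmg1, Psme2, Psmb9 and Ngly1 were not tested with columns placed on absolute values, so their signs have no check under that placement. No paired analysis was possible because the labels number the arrays 1 to 6 and the orientations share no number.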
